A study of Mus musculus with 14 samples.

Results

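The neighbourhoods of Egr1, Egr2 and Egr3 were covered by 29 of the 191271 open chromatin regions that an ATAC-seq table of mouse hippocampal neuronal nuclei listed on the mm9 build. The members were all regions overlapping chr18:34985000-35060000 for Egr1 (11 regions), chr10:66960000-67045000 for Egr2 (8 regions) or chr14:70445000-70515000 for Egr3 (10 regions). The table gave positions without gene names. An mm9 annotation was not used here, so no member was placed in an exon, an intron or a promoter. In the gene order of RefSeq's GRCm38.p6, Egr1 lies between Reep2 and Etf1, Egr2 between Nrbf2 and Ado, and Egr3 between Pebp4 and Bin3, and no member was assigned to its Egr gene rather than to such a neighbour.

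ATAC-seq uses a transposase to cut and tag DNA that is open in the nucleus, so reads pile up at accessible promoters and enhancers. All mice were of the ArcCreERT2 strain crossed to an R26R-STOP-floxed reporter for eYFP, with the genotype given as +/+, received 4-hydroxytamoxifen before contextual fear conditioning and got a foot shock on day 0. In this model the Cre recombinase is driven from Arc, itself an activity-induced neuronal gene, and becomes active with tamoxifen. The 14 libraries formed 4 groups by their titles. Reactivated (n = 3) had memory recall on day 5 and collection on days 5, 6 and 7 for replicates 1, 2 and 3. Late (n = 4) was collected on day 5 without recall. Early (n = 3) and Basal (n = 4) shared all treatment labels, with collection on day 0 and no recall, and differed in title only, so what sets Basal apart is not known here. Nuclei were stained for NeuN, Arc and GFP and sorted, but the labels do not say which sorted fraction each library holds. The design text states a pool of 10 to 12 mice for 10000 nuclei per condition. It does not tie mice to libraries, so p-values measure the spread between libraries, part of which may be technical. The labelled cell type was not checked against marker genes, since the regions carry no gene names.

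The EGR proteins are zinc finger transcription factors that bind GC-rich sites. Their genes are immediate early genes: synaptic activity switches them on within minutes through factors already present in the cell, among them the serum response factor at CArG boxes and CREB at cAMP response elements. Egr1, also called Zif268 or Krox-24, is widely used as a marker of recently active neurons and is needed for lasting forms of plasticity and memory in mice. Egr2, or Krox-20, is best known for hindbrain patterning and for myelination by Schwann cells, and it is also induced by activity in forebrain neurons. Egr3 is induced by the same stimuli and is known for its roles in muscle spindle development and in hippocampal memory.

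One stretch of regulatory sequence is shown because it holds both kinds of activity-responsive motif. It comes from RefSeq's promoter table for GRCm38.p6, where 1 of the 3 genes, Egr2, had entries, 5 windows of 300 bases on the plus strand, some of which overlap. The window at chr10:67537619-67537918 reaches from 250 bases before a transcript start to 50 bases after it. Capitals mark a CArG box, at position -72 from the start, and on either side of it TGACG, the core of the cAMP response element, which the second time lies on the other strand and reads CGTCA.
Egr2 promoter window: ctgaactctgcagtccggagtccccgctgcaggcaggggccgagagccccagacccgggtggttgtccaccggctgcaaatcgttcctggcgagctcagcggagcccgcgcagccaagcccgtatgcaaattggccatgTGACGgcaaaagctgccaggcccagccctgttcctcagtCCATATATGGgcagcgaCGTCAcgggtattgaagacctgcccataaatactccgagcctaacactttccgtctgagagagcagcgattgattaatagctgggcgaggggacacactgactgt
A CArG box was found on either strand in 1.63% of all 32851 promoter windows of that table and TGACG in 20.8%. The full element TGACGTCA, of which TGACG is a part, was in 1.79% of all windows and in none of the 5 Egr2 windows, and the EGR sites GCGTGGGCG (0.612% of all windows) and GCGGGGGCG (2.91%) were in none of the 5 either. The window was not placed against the mm9 regions.

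Reads were recovered from the deposited RPKM values (reads scaled by the length of the region and by the library's total). They totalled 46134253 to 47375212 per library in Late, 56251676 in Reactivated replicate 1 and 54257222 to 54269492 in all other libraries. Why the totals of the latter lie so close together is not known here. The share of these reads that fell in the table's regions was 23.1% ± 1.54 in Reactivated (SD, n = 3), 19.2% ± 0.653 in Late (n = 4), 19.9% ± 7.15 in Early (n = 3) and 15.7% ± 2.71 in Basal (n = 4). Early replicates 1, 2 and 3 stood far apart, at 13.8%, 27.8% and 18.1%. Over all 172143 regions tested, the median log2 fold change was 0.39 for Reactivated against Basal, 0.28 for Late against Basal and 0.23 for Early against Basal, and 0.02 to 0.11 for the other comparisons. Levels at the Egr loci are therefore given both as RPKM and as RPKM scaled to reads in regions, for which each value was divided by the library's share of reads in regions relative to the pooled share of all libraries, a scale added after the data were seen. The range of high values was narrower in Late. The level that 0.1% of regions surpassed was 4.23 ± 0.127 times the median RPKM in Late (SD, n = 4), against 7.31 ± 1.78 to 8.66 ± 0.455 times in the other groups. In bulk libraries, more nuclei with an open site and a wider opening per nucleus cannot be told apart.

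The 3 neighbourhoods were more accessible than most of the table. Of the 29 members, 25 had a mean RPKM over the 14 libraries above the median of all regions, 1.31, and 18 were longer than the median of 520 bases. At Egr1 one wide region stood out, chr18:35019467-35022047, the longest of all members at 2580 bases and the highest of its locus at 4.06 RPKM. At Egr2 the highest was also the widest, chr10:67010615-67012578, with 1963 bases and 4.59 RPKM. At Egr3 the highest region, chr14:70476573-70476809, was only 236 bases long but had the highest mean of all members, 5.99 RPKM, and lay between wider neighbours such as chr14:70474252-70475802 (1550 bases, 2.60 RPKM). These 3 highest regions are called lead regions here. Reads of the lead region made up 40.8% to 50.1% of the reads of all members at Egr2 and 31.9% to 38.8% at Egr1, as group means, but 7.83% to 10.4% at Egr3.

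**Figure D1:**
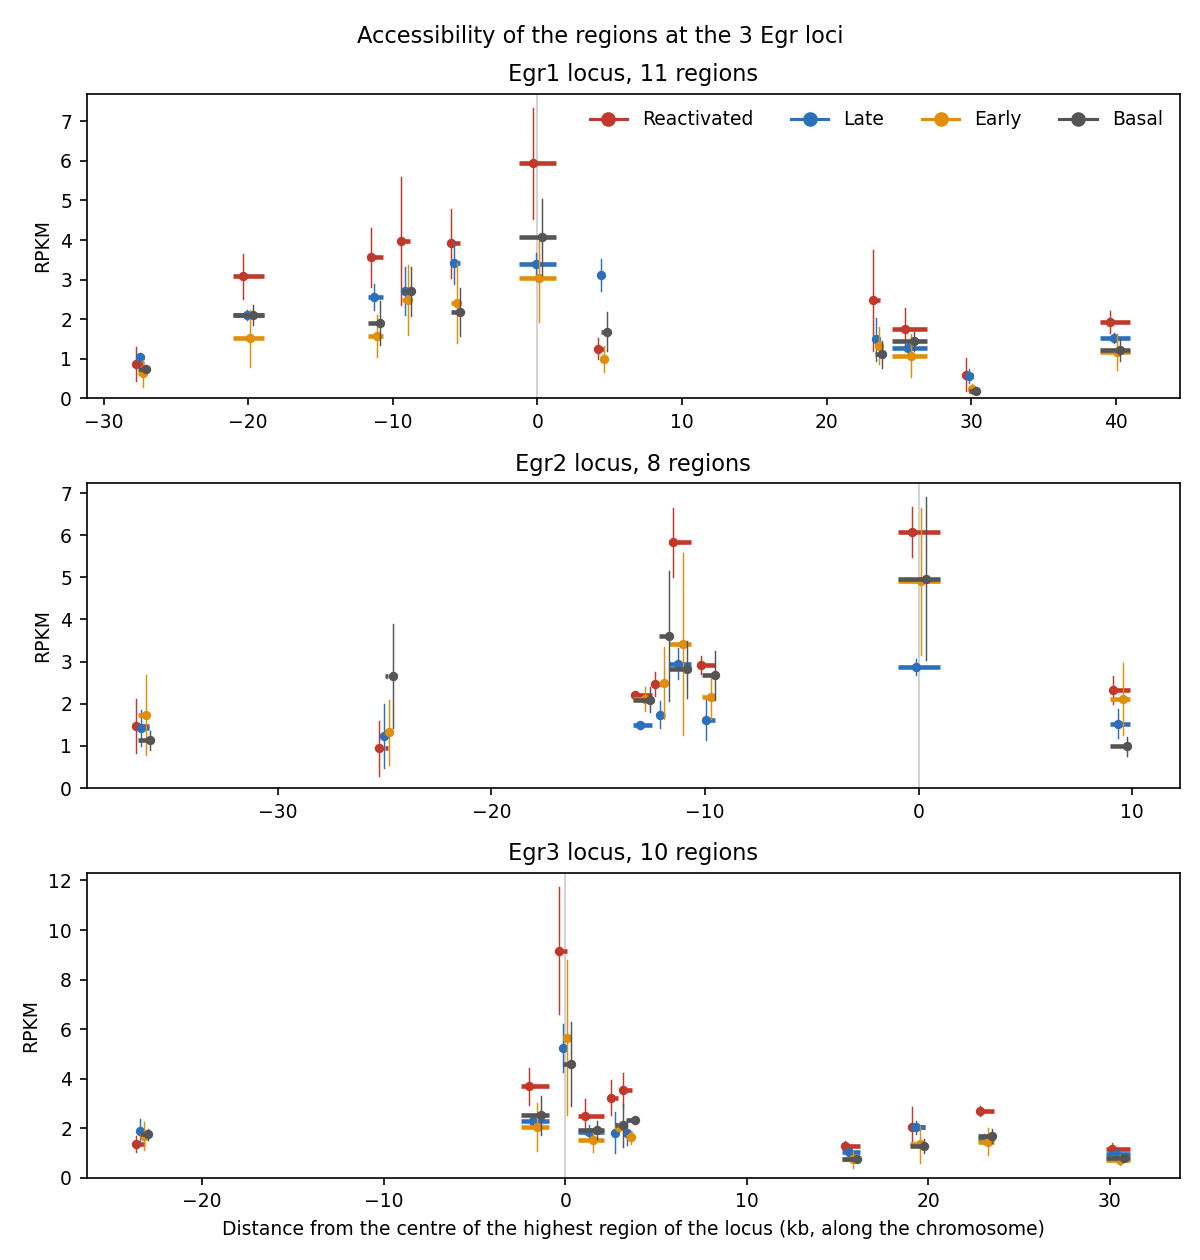
Mean RPKM of each member region (y axis) against the distance of its middle from the middle of the lead region in kilobases (x axis), for the Egr1, Egr2 and Egr3 loci. Points are group means and bars the SD over 3 libraries (Reactivated, Early) or 4 (Late, Basal). Reactivated means lie on top at most positions, and the Late mean is on top at the Egr1 member 4.50 kb from the lead region.

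Reactivated had the highest group mean at 23 of the 29 members, against 41.4% of all regions of the table. Early had the lowest mean at 14 members, against 15.7% of all regions, and Basal at 8 members, against 55.7%. Early was lowest at 8 of 11 Egr1 members and 6 of 10 Egr3 members and at 0 of 8 Egr2 members. At Egr2 Late was lowest at 4 members and Basal at 3. These are orders of means without a test, and the place of Early moved with Early replicate 1. Without that library Early was no longer lowest at the Egr1 lead region described below (3.58 RPKM, against 3.39 in Late). The same held at chr14:70474252-70475802 (2.47 RPKM, against 2.28 in Late). At other members it stayed lowest, such as chr18:35025135-35025386 (1.17 RPKM, against 1.26 in Reactivated).

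The Egr1 lead region, chr18:35019467-35022047, read 7.42, 4.64 and 5.76 RPKM in Reactivated replicates 1 to 3, 2.96, 3.46, 3.52 and 3.62 RPKM in Late, 1.98, 4.19 and 2.96 RPKM in Early and 5.07, 3.10, 3.44 and 4.69 RPKM in Basal. Every Reactivated library lay above every Late and every Early library, and Early and Basal overlapped. In RPKM no comparison of this region passed limma's test: the log2 fold change was 0.89 ± 0.30 (SE) for Reactivated against Early (adjusted p = 0.106), 0.71 ± 0.28 for Reactivated against Late (adjusted p = 0.350) and -0.39 ± 0.28 for Early against Basal (adjusted p = 0.355). Its place among all regions of the same library, which no scaling changes, gave a clearer order. Between 0.854% and 1.81% of regions stood above it in Reactivated libraries, 1.67% to 3.99% in Late, 4.76% to 9.09% in Early and 0.758% to 2.12% in Basal, so the region ranked lower in each of the 3 Early libraries than in any other library. Scaled to reads in regions, it fell in Early against Basal by 0.67 ± 0.13 on the log2 scale (limma adjusted p = 0.00537) and was higher in Reactivated than in Early by 0.65 ± 0.14 (adjusted p = 0.0331). It also fell in Late against Basal, by 0.48 ± 0.12 (adjusted p = 0.00906). With median-of-ratios scaling each of these calls held, at -0.69 ± 0.16 (adjusted p = 0.010), 0.73 ± 0.17 (adjusted p = 0.0325) and -0.57 ± 0.14 (adjusted p = 0.00844) in the same order.

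The Egr2 lead region, chr10:67010615-67012578, showed another order of groups. It read 5.68, 5.80 and 6.76 RPKM in Reactivated, 2.96, 3.00, 2.92 and 2.58 RPKM in Late, 3.22, 6.70 and 4.80 RPKM in Early and 7.66, 4.05, 3.20 and 4.97 RPKM in Basal. All 4 Late libraries were below all 10 others. In RPKM the log2 fold change was 0.96 ± 0.29 (SE) for Reactivated against Late (limma adjusted p = 0.249), -0.63 ± 0.29 for Late against Early (adjusted p = 0.367) and -0.64 ± 0.27 for Late against Basal (adjusted p = 0.0763), none of them past the threshold of 0.05. Between 0.911% and 1.95% of regions stood above it in Reactivated libraries, 4.00% to 8.12% in Late, 0.914% to 1.84% in Early and 0.460% to 1.36% in Basal, so by rank, too, Late lay apart from the other groups. Scaled to reads in regions, the region fell in Late against Basal by 0.91 ± 0.13 (limma adjusted p = 0.000462) and in Late against Early by 0.63 ± 0.14 (adjusted p = 0.0404), and it was higher in Reactivated than in Late by 0.72 ± 0.14 (adjusted p = 0.0229). With median-of-ratios scaling, Late against Basal (-0.99 ± 0.16, adjusted p = 0.000752) and Reactivated against Late (0.86 ± 0.17, adjusted p = 0.0247) passed, and Late against Early did not. Late is also the group with the lowest read totals and the narrower range of high values over the whole table. The part of these in this difference was not tested.

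The Egr3 lead region, chr14:70476573-70476809, read 11.98, 6.95 and 8.59 RPKM in Reactivated, 4.56, 5.97, 6.17 and 4.24 RPKM in Late, 2.66, 8.90 and 5.39 RPKM in Early and 6.32, 4.76, 2.26 and 5.08 RPKM in Basal. The Reactivated libraries were above all Late and all Basal libraries, while Early replicate 2 overlapped them. Against Basal the log2 fold change was 0.96 ± 0.36 (SE), limma adjusted p = 0.0459. That call was lost in 18 of 26 alternatives, among them leaving out Basal replicate 2 and each of the rescalings, and the fold change ranged from 0.07 to 1.14 over them. Between 0.154% and 0.529% of regions stood above it in Reactivated, 0.0748% to 0.708% in Late, 0.632% to 3.05% in Early and 0.375% to 5.29% in Basal, with overlap between Reactivated, Late and Basal. The region is short and held 29 to 159 reads per library.

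**Figure D2:**
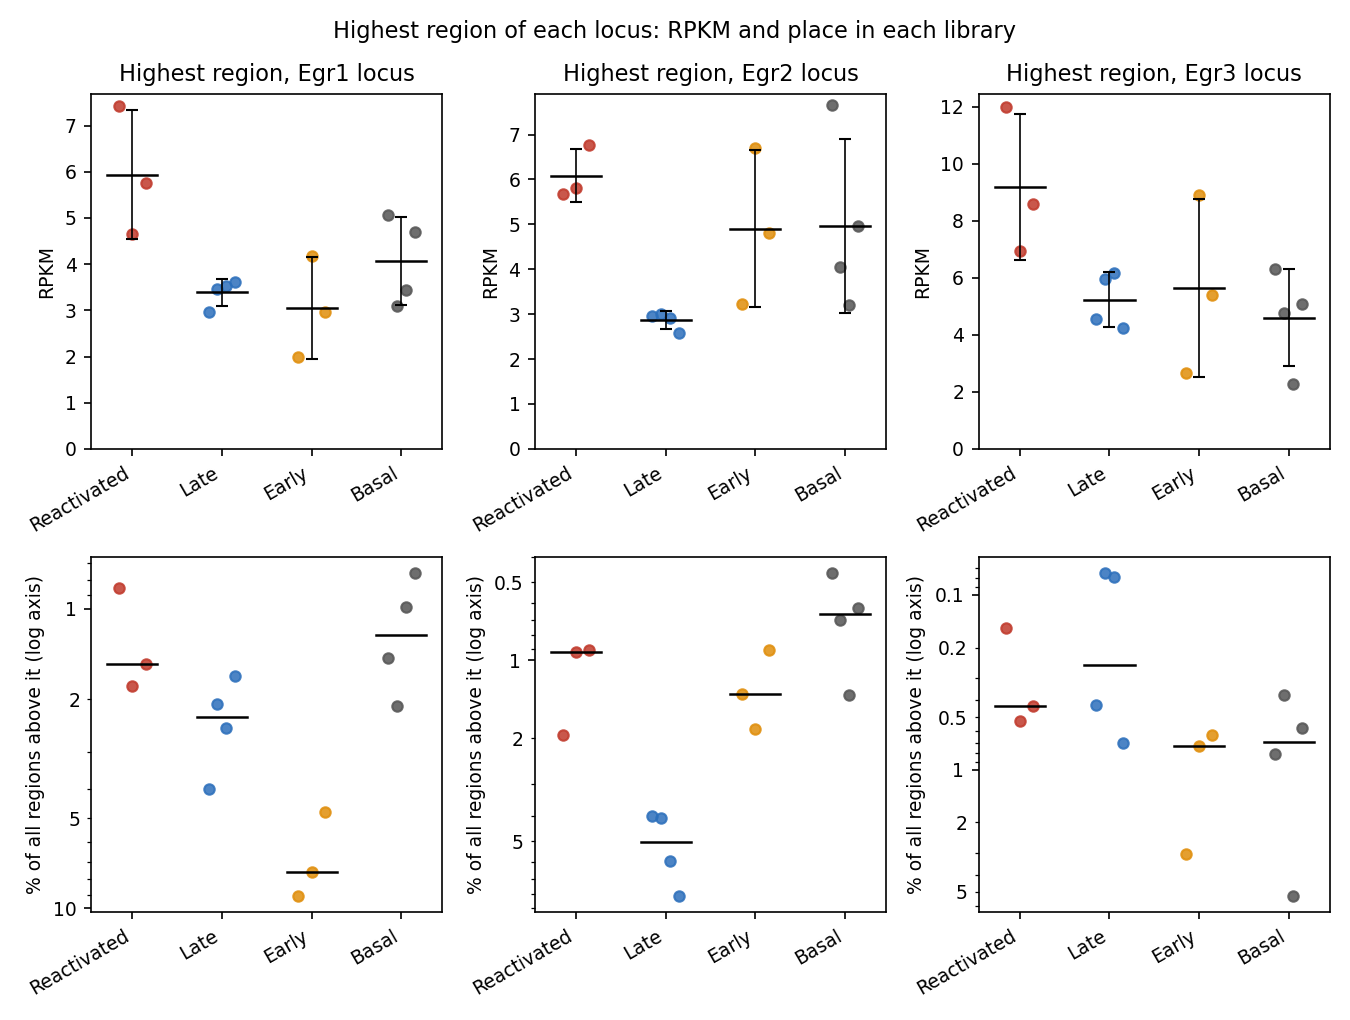
Top row: RPKM of the lead region of each locus in every library (points), with the group mean (line) and SD (bars; n = 3 for Reactivated and Early, 4 for Late and Basal). Bottom row: the percentage of all regions of the same library with a higher RPKM, on a reversed log axis with the group median as a line; the Egr1 lead region ranks lowest in the 3 Early libraries (4.76% to 9.09%) and the Egr2 lead region in the 4 Late libraries (4.00% to 8.12%).

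Reads of all members of a locus were then added up in each library and divided by their summed length. At Egr1 this locus level was 3.16 ± 0.691 RPKM in Reactivated (SD, n = 3), 2.18 ± 0.172 RPKM in Late (n = 4), 1.71 ± 0.647 RPKM in Early (n = 3) and 2.13 ± 0.375 RPKM in Basal (n = 4). At Egr2 it was 4.00 ± 0.261 RPKM in Reactivated, 2.17 ± 0.102 RPKM in Late, 3.17 ± 1.17 RPKM in Early and 3.00 ± 0.887 RPKM in Basal. At Egr3 it was 2.55 ± 0.447 RPKM in Reactivated, 1.77 ± 0.132 RPKM in Late, 1.52 ± 0.565 RPKM in Early and 1.71 ± 0.275 RPKM in Basal. In the order of means, Reactivated was on top at each locus. Below it, neighbours in the order overlapped at each locus: Late, Basal and Early at Egr1 and Egr3, and Early, Basal and Late at Egr2.

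Reactivated exceeded Late at all 3 loci, in 3 of 3 libraries above every Late library, by 0.52 (Egr1), 0.88 (Egr2) and 0.51 (Egr3) on the log2 scale. The 2-sided exact permutation p was 0.0571 at each, the smallest that 3 against 4 libraries allow, and 0.294 after adjustment over 3 loci and 6 comparisons. None of the 18 differences passed after adjustment. The share of reads in regions was higher in Reactivated too (21.3% to 24.0%, against 18.4% to 20.02% in Late). Scaled to reads in regions, the difference remained without overlap at Egr2, at 0.62 (exact permutation p = 0.0571, adjusted 0.103). At Egr1 and Egr3 it was 0.25 and 0.25 with overlapping groups. With median-of-ratios scaling the groups stayed without overlap at all 3 loci, at 0.42 (Egr1), 0.78 (Egr2) and 0.41 (Egr3). The exact permutation p was again 0.0571 at each, and 0.0935 after adjustment.

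Per reads in regions the Early libraries, scattered in RPKM, came close together. The Egr1 level was then 2.62 ± 0.432 in Reactivated (SD, n = 3), 2.18 ± 0.149 in Late (n = 4), 1.63 ± 0.0972 in Early (n = 3) and 2.61 ± 0.141 in Basal (n = 4), as scaled RPKM. At Egr3 it was 2.11 ± 0.245 in Reactivated, 1.78 ± 0.125 in Late, 1.46 ± 0.0808 in Early and 2.10 ± 0.143 in Basal. At both loci all Early libraries lay below all libraries of the other groups, all Late libraries lay below all Basal ones, and Reactivated and Basal overlapped. At Egr2 the level was 3.34 ± 0.283 in Reactivated, 2.18 ± 0.130 in Late, 3.04 ± 0.117 in Early and 3.61 ± 0.428 in Basal, and there the Late libraries lay below all others. Early against Basal differed by -0.67 at Egr1, -0.24 at Egr2 and -0.53 at Egr3 on the log2 scale, each with the smallest exact permutation p of 0.0571 for 3 against 4 libraries. Late against Basal differed by -0.26, -0.72 and -0.24 in the same order of loci, each with an exact permutation p of 0.0286, the smallest for 4 against 4. After adjustment over the 18 tests these stood at 0.103, so no locus level passed on this scale either. With median-of-ratios scaling, Early and Basal overlapped at Egr2 (-0.27, exact permutation p = 0.171, adjusted 0.206). At Egr1 and Egr3 they stayed apart, at -0.70 and -0.55 (exact permutation p = 0.0571, adjusted 0.0935).

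**Figure D3:**
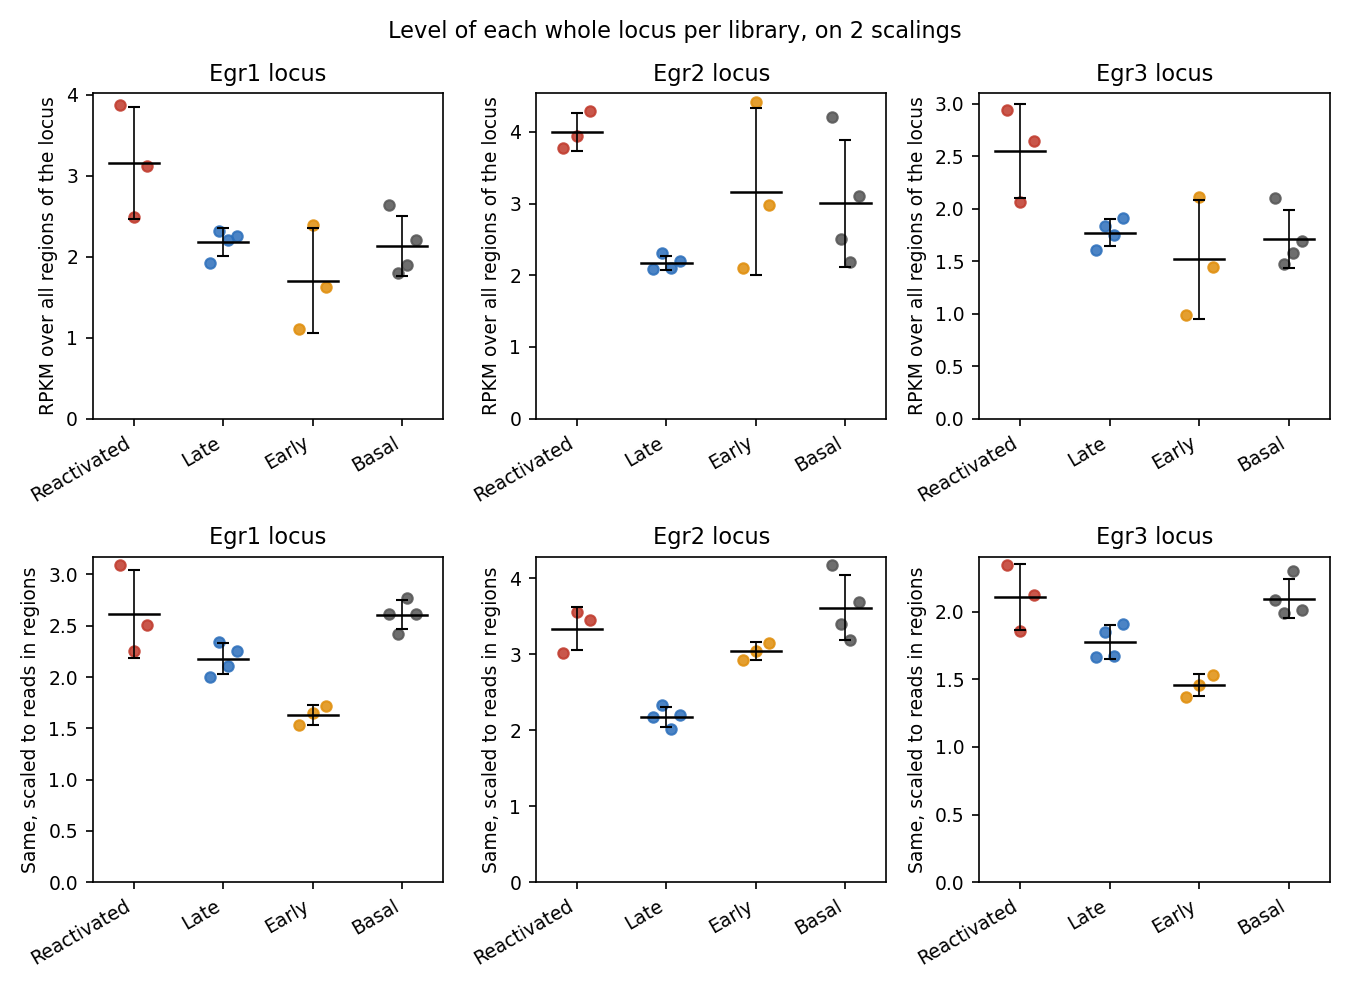
Locus level of Egr1, Egr2 and Egr3 in each library, in RPKM (top row) and in RPKM scaled to reads in regions (bottom row); points are libraries, lines the group means and bars the SD (n = 3 for Reactivated and Early, 4 for Late and Basal). On the scale of reads in regions the Early libraries are the lowest at Egr1 and Egr3, and the Late libraries at Egr2.

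Of the 29 members, 28 passed the filter on low values and entered limma's test, which was run on all regions. The one left out, chr18:35050597-35050883 at Egr1, averaged 0.395 RPKM, with 2 to 16 reads per library. The count of members called is read here against the share of all tested regions called in the same comparison.

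In Reactivated against Basal 5 of 28 members were higher and 1 was lower with adjusted p under 0.05, beside 24.3% and 4.78% of all regions tested, so the members were not called more often than the table as a whole. Their median log2 fold change was 0.47, against 0.39 for all regions. With median-of-ratios scaling both medians were 0.04, and scaled to reads in regions both were -0.01. In 11 members the Reactivated libraries lay above all Basal ones, against 34.9% of all regions. The lowest adjusted p was at chr10:67020574-67021493 of Egr2, 9.44 kb from the lead region. It read 2.13, 2.71 and 2.13 RPKM in Reactivated and 0.962, 1.02, 0.702 and 1.26 RPKM in Basal, without overlap, a log2 fold change of 0.93 ± 0.25 (SE; limma adjusted p = 0.0118) whose call held in 23 of 26 alternatives. The call held with median-of-ratios scaling (0.56, adjusted p = 0.0437). It was lost when scaled to reads in regions (0.51, adjusted p = 0.0652), with that share as a covariate (0.54, adjusted p = 0.360) and with quantile normalization (0.56, adjusted p = 0.0517). A second Egr2 member, chr10:66999924-67000954, averaged 5.83 ± 0.812 RPKM in Reactivated (n = 3) and 2.82 ± 0.677 RPKM in Basal (n = 4), a change of 0.94 ± 0.30 (adjusted p = 0.0257). At Egr1, chr18:35009038-35010072 rose by 0.76 ± 0.25 (adjusted p = 0.0302) and chr18:35044108-35044432 by 0.82 ± 0.30 (adjusted p = 0.0422), and at Egr3 the lead region rose as given above. The lower member was the shortest, chr10:66986625-66986746 with 121 bases and 1 to 25 reads per library, at -1.13 ± 0.41 (adjusted p = 0.0448). Of the 26 alternatives, the calls of chr10:66999924-67000954 and chr18:35009038-35010072 were lost in 10 each, and those of chr18:35044108-35044432 and chr10:66986625-66986746 in 11 each. Scaled to reads in regions, the 3 higher ones were at 0.45, 0.30 and 0.39, in the order chr10:66999924-67000954, chr18:35009038-35010072 and chr18:35044108-35044432, and none was called, while chr10:66986625-66986746 was called at -1.52 (adjusted p = 0.0220). Leaving out one library moved both the count of members and the share of all regions called, which was 29.1% in either direction with all libraries. The count was 1 without Basal replicate 2 (17.2% of all regions) or Reactivated replicate 3 (11.1%), and 2 without Basal replicate 3 (15.9%). It was 3 without Basal replicate 4 (22.5%), Reactivated replicate 1 (18.2%) or Reactivated replicate 2 (21.1%), and 10 without Early replicate 2 (40.7%). Median-of-ratios scaling called 1 higher and 3 lower (8.93% and 10.7% of all regions), and scaling to reads in regions 0 higher and 3 lower (7.64% and 11.1%).

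In Late against Basal 1 of 28 members was higher and 1 was lower, beside 23.9% and 6.03% of all regions tested. Egr1 member chr18:35025135-35025386 rose, and Egr2 member chr10:66999436-66999743 fell by 0.81 ± 0.26 on the log2 scale (SE; limma adjusted p = 0.0259), with 1.74 ± 0.321 RPKM in Late (n = 4) and 3.62 ± 1.55 RPKM in Basal (n = 4). The median over members was 0.04, against 0.28 over all regions, and by locus it was 0.26 at Egr1, -0.49 at Egr2 and 0.01 at Egr3. The medians were -0.21 over members and 0.07 over all regions when scaled to reads in regions. The count was 0 without Late replicate 1 (23.2% of all regions called, against 30% with all libraries). It was 1 without Basal replicate 1 (29.0%), Basal replicate 4 (24.3%) or Late replicate 3 (20.3%), 4 without Basal replicate 3 (20.4%), Early replicate 2 (38.4%) or Late replicate 4 (23.0%), and 5 without Early replicate 1 (34.9%). Rescaled by median of ratios, 0 members were higher and 8 lower (14.6% and 16.4% of all regions), 5 of the lower ones at Egr2, and scaled to reads in regions 0 were higher and 7 lower (18.9% and 13.1%), again 5 of them at Egr2. Besides the lead region these 5 were the same Egr2 members on both scales: chr10:66986625-66986746, chr10:66998220-66999124, chr10:66999436-66999743 and chr10:67001453-67002060. Their log2 fold changes on the scale of reads in regions ran from -1.15 to -0.63. The Egr1 lead region and Egr3 member chr14:70480040-70480394 were also lower on both scales, at -0.48 and -0.57 per reads in regions. Egr3 member chr14:70499439-70500290 was lower with median of ratios only.

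In Early against Basal 1 of 28 members was higher and 0 were lower, beside 10.9% and 1.44% of all regions tested. The one called was again chr10:67020574-67021493 at Egr2, which read 1.28, 3.01 and 2.05 RPKM in Early and 0.962, 1.02, 0.702 and 1.26 RPKM in Basal, a log2 fold change of 0.77 ± 0.25 (SE; limma adjusted p = 0.0445). The groups did not overlap, but the call was lost in 18 of 26 alternatives, and the count was 0 without any one of the 4 Basal libraries, Early replicate 2 or 3, any one of the 4 Late libraries or Reactivated replicate 3. In those fits 0.713% (without Early replicate 2) to 11.6% (without Basal replicate 1) of all regions were called, against 12.4% with all libraries. The median over members was -0.11, against 0.23 over all regions, and 8 of 28 fold changes were above 0, against 69.3% of all regions. Single Early libraries moved both medians: without Early replicate 1 they were 0.03 over members and 0.38 over all regions, and without Early replicate 2 they were -0.28 and 0.07. They were -0.35 and 0.02 when scaled to reads in regions. Rescaling turned the split round. With median-of-ratios scaling 0 members were higher and 7 lower (8.19% and 6.85% of all regions), 4 of them at Egr1. Scaled to reads in regions, 0 were higher and 8 lower (9.35% and 6.38%), 5 of them at Egr1: the lead region, chr18:34999689-35001828, chr18:35009038-35010072, chr18:35025135-35025386 and chr18:35045286-35047687.

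In Late against Early 1 of 28 members was higher and 0 were lower, beside 0.31% and 0.103% of all regions tested. The member was chr18:35025135-35025386, 4.50 kb from the Egr1 lead region and 251 bases long. It read 1.35, 0.954 and 1.47 RPKM in Reactivated, 3.69, 2.85, 2.86 and 3.05 RPKM in Late, 0.661, 1.03 and 1.32 RPKM in Early and 1.25, 2.35, 1.76 and 1.39 RPKM in Basal. All 4 Late libraries were above all 10 others, with 9 to 43 reads over the 14 libraries. The log2 fold change was 1.28 ± 0.24 (SE; limma adjusted p = 0.0159) for Late against Early, 0.74 ± 0.22 (adjusted p = 0.0166) for Late against Basal and -1.05 ± 0.24 (adjusted p = 0.0770) for Reactivated against Late. Late against Early lost its call without Early replicate 1 (adjusted p = 0.0741) and without Late replicate 4 (0.0514), each of which brings the count of members to 0, beside 0.132% and 0.143% of all regions called, against 0.414% with all libraries. It also lost it in limma-voom on the recovered reads (0.0537), and its fold change ranged from 1.05 to 1.65 over the alternatives. Late against Basal lost its call without Late replicate 1 (0.0516), with median of ratios (0.137) and with reads in regions (0.0883). Reactivated against Late passed with either rescaling, at -1.10 ± 0.22 with median of ratios (0.0309) and -1.23 ± 0.23 with reads in regions (0.0191).

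By locus, Late against Early divided the members: all 10 tested Egr1 members had a fold change above 0 and all 8 Egr2 members one below 0, with medians of 0.38 and -0.33, while 9 of 10 Egr3 members were above 0 with a median of 0.16. Over all regions 53% were above 0. This division moved with single Early libraries. Without Early replicate 1, 8 of 10 Egr1 members (median 0.16) and 5 of 10 Egr3 members (median 0.00) were above 0, and without Early replicate 2, 5 of 8 Egr2 members were below 0 (median -0.13) and the Egr3 median was 0.36. Apart from the Egr1 member just described, none of these was called in RPKM. Median-of-ratios scaling likewise called 1 member higher and 0 lower (0.49% and 0.263% of all regions), and scaling to reads in regions 1 higher and 1 lower (1.03% and 0.378%), the lower one being the Egr2 lead region.

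Reactivated against Early and Reactivated against Late had 0 of 28 members called by limma in either direction, beside 0.944% higher and 0.417% lower of all regions in the first and 0.0256% and 0.205% in the second. At an unadjusted p under 0.05 there were 11 members in each, beside 19.5% of all regions in the first and 11.3% in the second. Limma-voom on the recovered reads called 2 members higher against Early, beside 2.43% of all regions higher and 0.293% lower, and 0 against Late, beside 0.162% in either direction. Against Early the median over members was 0.54, against 0.11 over all regions, and against Late it was 0.43, against 0.09. On the scale of reads in regions these medians were 0.34 and -0.08 against Early, and 0.20 and -0.10 against Late. Without Reactivated replicate 1 the members' median against Late was 0.26 (all regions 0.06), and without Early replicate 1 the one against Early was 0.34 (all regions -0.04). The Reactivated libraries lay above all Early libraries at 8 members (10.6% of all regions) and above all Late libraries at 13 (13.5% of all regions). Of those 13, 6 of the 8 Egr2 members, 3 of 10 at Egr1 and 4 of 10 at Egr3 contributed. Without Early replicate 2, the library with the highest share of reads in regions, 11 of 28 members were called higher in Reactivated than in Early, beside 14.5% of all regions. With all libraries these were 0 of 28 and 0.944%. Without Early replicate 1 or Early replicate 2, 1 member, the Egr1 region at 4.50 kb, was called lower in Reactivated than in Late, beside 0.261% and 0.31% of all regions. Median-of-ratios scaling called 4 members higher and 0 lower in Reactivated against Early (1.88% and 0.949% of all regions), 3 at Egr1 and 1 at Egr3, the last being chr14:70480040-70480394. In Reactivated against Late it called 1 higher and 1 lower (0.603% and 0.401%), the Egr2 lead region and the Egr1 member at 4.50 kb. Scaling to reads in regions gave 3 and 0 against Early (1.37% higher) and 1 and 1 against Late (0.469% and 0.77%).

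**Figure D4:**
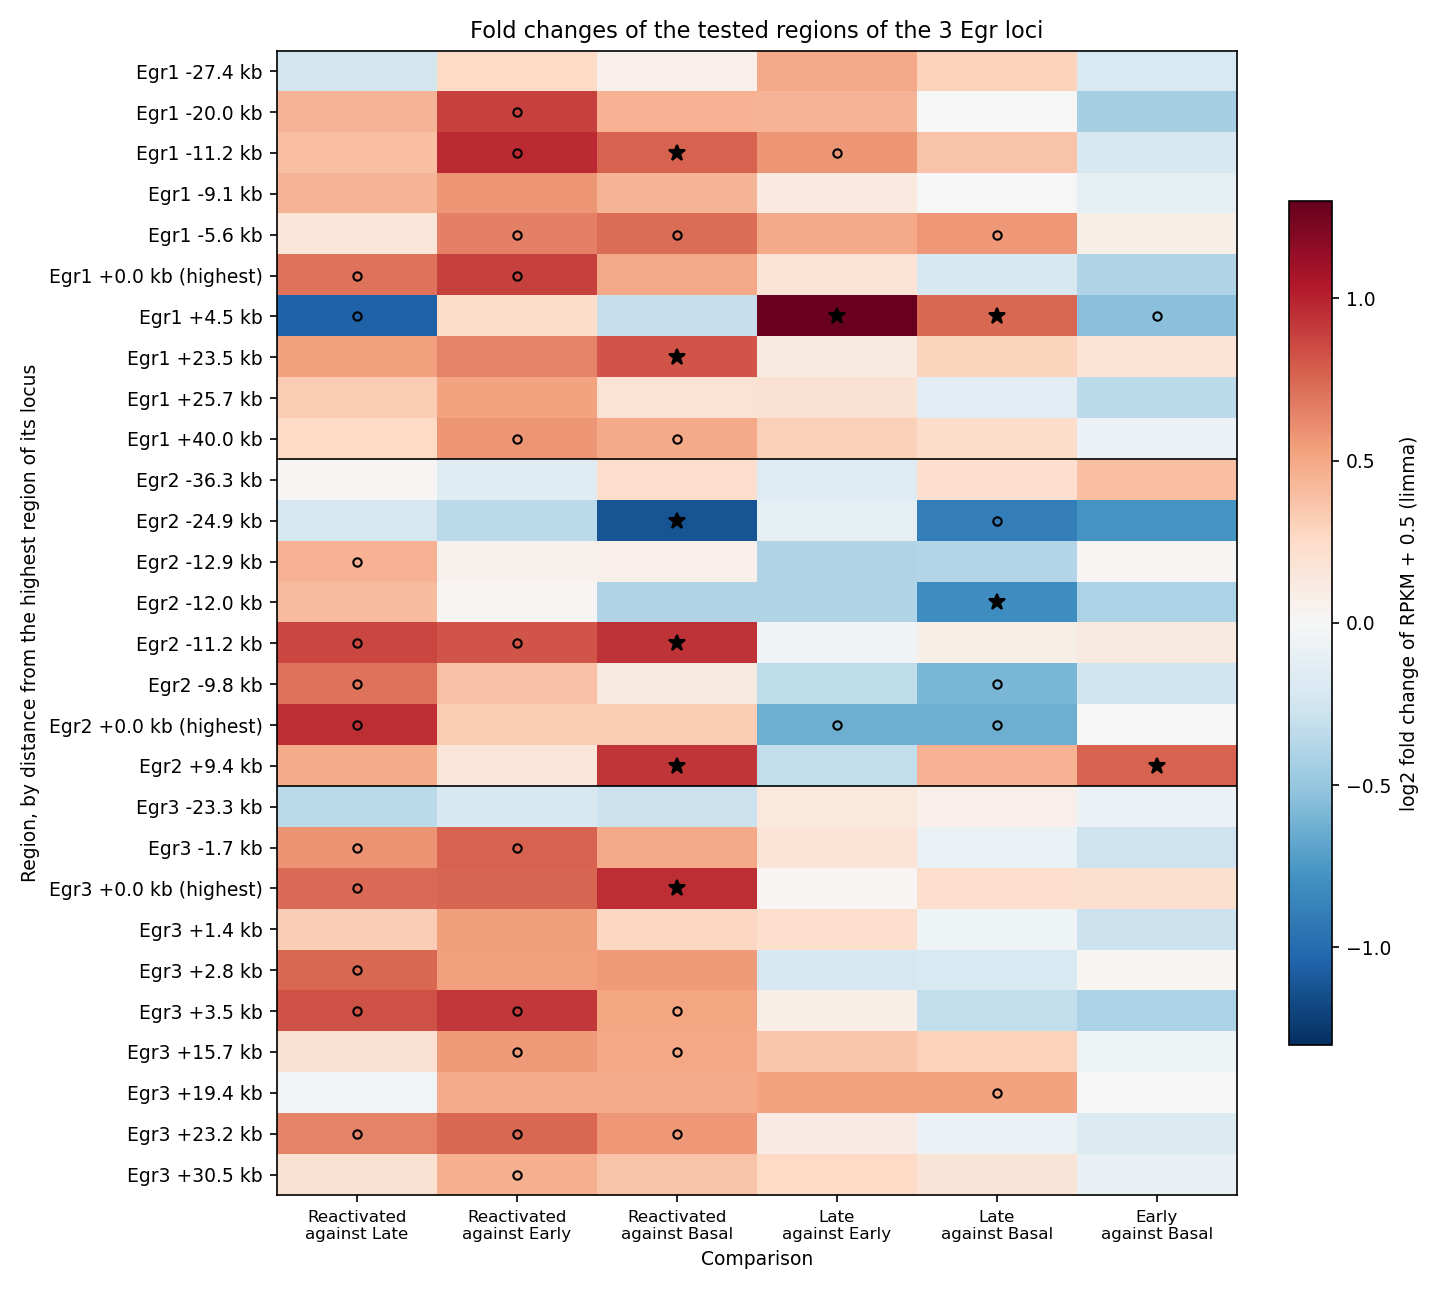
Log2 fold change of RPKM + 0.5 (colour) for the 28 tested members (rows, by distance from the lead region of their locus) in the 6 comparisons (columns). Stars mark adjusted p under 0.05 and circles unadjusted p under 0.05 in limma; the Reactivated columns are mostly positive, and the row of the Egr1 member at 4.50 kb is the one with 2 stars in the Late columns.

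Across the 14 libraries, the locus levels of Egr1 and Egr3 ran closely together, with a Pearson r of 0.988 in RPKM and 0.982 per reads in regions, on log2 values. Egr2 ran with them less closely, at 0.630 with Egr1 and 0.684 with Egr3 in RPKM and 0.273 and 0.333 per reads in regions. These values describe 14 libraries whose loci share depth and group, and carry no test. Within a locus, r of single members with their lead region varied widely. It was taken in RPKM only, not per reads in regions, and was not set beside regions at large. With the Egr1 lead it was 0.919 for chr18:34999689-35001828 and -0.15 for the member at 4.50 kb. At Egr2 it was 0.857 for chr10:66998220-66999124 and 0.212 for the short chr10:66986625-66986746. At Egr3 it was 0.763 for chr14:70495683-70496523 and -0.26 for chr14:70453250-70453533, the member with the lowest coordinates.

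Among the 95610 regions outside the 3 windows whose mean log2 value lay above the median, those whose values followed a lead region most closely over the 14 libraries were found by Pearson's r. For the Egr1 lead region it was chr4:42962332-42963485, with r = 0.993 and 7.31, 4.09, 3.63 and 4.81 RPKM as means of Reactivated, Late, Early and Basal, followed by chr10:80084671-80085866 (r = 0.990) and chr2:34626926-34628059 (r = 0.983). For the Egr2 lead region it was chr1:13362129-13364759, with r = 0.990 and means of 6.54, 3.27, 5.77 and 5.40 RPKM in the same order of groups, followed by chr4:53452678-53455123 (r = 0.989) and chr18:32069938-32071173 (r = 0.989). For the Egr3 lead region it was chr13:107916558-107917489, with r = 0.976 and means of 2.94, 2.13, 2.27 and 1.85 RPKM, followed by chr18:33118731-33119119 (r = 0.975) and chr18:60839601-60841003 (r = 0.973). The order of the group means of the closest region was that of the lead region in each case but Egr2, where Early and Basal were exchanged. A like order follows from choosing by r over the same 14 libraries and is no further result. These r values are the highest of many and carry no test.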

How the data were processed

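ATAC-seq was done on 14 libraries of sorted hippocampal neuronal nuclei, grouped by the labels' titles. The authors deposited 1 table of RPKM values for a common list of regions, and Bowtie2 2.0, SAMtools, MACS2, DiffBind 1.16.327, DESeq2 and the build mm9 are named per the submitters' processing notes, without role or order. Region calling, any shift of cut positions and the base from which starts count are not given in the sources used here. These steps set the region borders and the reads in narrow regions. RPKM times length gave whole multiples of 1 step per library for 100% of values, within a tolerance of 0.01, so reads and library totals were recovered (median 25 to 47 reads per region). No value was 0, and 2.27% to 3.11% of regions per library stood at 1 read.

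Values were analysed as log2(RPKM + 0.5), which understates changes at low levels. Regions with a mean RPKM under 0.829, the lowest 10%, were left out. All 14 libraries entered 1 limma fit (limma 3.58.1, R 4.3.3) with group means and trended, robust moderation, in which the groups share one estimate of the spread. P-values were 2-sided and adjusted by Benjamini-Hochberg over the 172143 regions of each comparison, with a threshold of 0.05. The fit was tested on simulated data in which all regions of a group shared a single spread, unlike these data. That test was a check of the code and says nothing about the calls given here. Fold changes carry limma's SE and levels the SD over libraries. Locus levels were compared by exact permutation tests, 2-sided as double the smaller tail, adjusted over 18 tests. The other steps used scipy 1.17.1, statsmodels 0.14.6, pandas 2.3.3, numpy 2.4.6 and matplotlib 3.10.9 in Python 3.11.15.

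The 3 windows, the members and the lists were chosen with earlier results of these data known. Members were named where they had the highest mean or the greatest width of their locus, were called in any comparison or had the greatest fold change of a locus in a comparison. Alternatives changed the pseudocount, filter, scaling, fit or libraries used, one at a time. Scaling to reads in regions was added after seeing the data. Lists of other activity-induced genes and of cell type markers were not run, since they need an mm9 annotation.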

Additional observations from a re-analysis of the deposited data

How the results depend on the processing

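The calls at the Egr loci depended on the scaling of libraries and on single libraries. In the comparisons Reactivated against Basal, Late against Basal, Early against Basal, Late against Early, Reactivated against Early and Reactivated against Late, the members called were 6, 2, 1, 1, 0 and 0, beside 29.1%, 30%, 12.4%, 0.414%, 1.36% and 0.231% of all regions. In that order quantile normalization gave 1, 8, 5, 3, 3 and 1 (16.3%, 31.8%, 12.4%, 2.37%, 2.76% and 0.375% of all regions). Scaling to the share of reads in regions gave 3, 7, 8, 2, 3 and 2 (18.7%, 32%, 15.7%, 1.41%, 2.37% and 1.24%), and a fit with that share as a covariate 0, 7, 3, 3, 4 and 1 (0%, 21.7%, 6.59%, 4.01%, 2.56% and 0.936%). Of these, 1, 6, 5, 1, 0 and 1 were lower with quantile normalization and 0, 6, 3, 1, 0 and 1 with the covariate. Median-of-ratios scaling gave 8 for Late against Basal (31%), 7 for Early against Basal (15%), 4 for Reactivated against Early (2.83%) and 2 for Reactivated against Late (1%). Fitting the 2 compared groups alone gave 6 for Late against Basal (41%), 0 for Early against Basal (3.7%) and 7 for Reactivated against Late (3.9%). Limma-voom on recovered reads gave 4 for Late against Basal (31%), 0 for Late against Early (0.346%) and 2 for Reactivated against Early (2.73%). Averaging the Late libraries to 1 sample gave 2 for Reactivated against Basal (19.5%) and 0 for Early against Basal (6.41%). It also gave 0 for Late against Basal and Late against Early, but there it called 0% of all regions, so it says nothing about the members. The cause of these shifts was not tested. Leaving out each library in turn gave 1 to 10 for Reactivated against Basal (11.1% to 40.7% of all regions), 0 to 5 for Late against Basal (20.3% to 38.4%), 0 to 1 for Early against Basal (0.713% to 26.7%), 0 to 1 for Late against Early (0.102% to 6.34%), 0 to 11 for Reactivated against Early (0.00349% to 17.3%) and 0 to 1 for Reactivated against Late (0.0877% to 0.423%). With a replicate block the counts were 1 for Reactivated against Basal (20.8%) and 0 for Early against Basal (6.78%), and unchanged for the others. Deviations from the group means had r of -0.26 to 0.07 over the 19 same-numbered pairs of libraries of different groups. For differently numbered pairs r was -0.15 to 0.20. This cannot decide whether the numbers pair libraries in the design, since libraries prepared together need not deviate together.

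The locus levels that changed sign were those of groups whose libraries overlapped in RPKM. Median-of-ratios scaling reversed the locus level of Late against Basal at Egr1 (-0.36) and Egr3 (-0.34), and at Egr2 that of Early against Basal (-0.27) and Reactivated against Basal (-0.045). Scaling to reads in regions turned the same 4 to -0.26, -0.24, -0.24 and -0.11, and Reactivated against Basal at Egr1 to -0.0056. The median over members gave -0.20 for Early against Basal and -0.054 for Reactivated against Basal at Egr2. With 1 library left out, the locus level of Early against Basal ran from -0.22 to 0.32 at Egr2 and from -0.50 to 0.046 at Egr3, and that of Late against Basal from -0.035 to 0.15 at Egr1 and from -0.0062 to 0.16 at Egr3. The lead region chr10:67010615-67012578 ran from -0.24 to 0.24 for Early against Basal. The lead region chr14:70476573-70476809 ran from -0.17 to 0.62 for Early against Basal and from -0.045 to 0.39 for Late against Basal. For this region Early against Basal was -0.093 with median of ratios, -0.042 with quantile normalization, -0.30 with the covariate and -0.070 with reads in regions. Late against Basal was -0.13 with median of ratios, -0.19 with the covariate and -0.041 with reads in regions, and Reactivated against Late was -0.14 with quantile normalization. Short members held few reads, and 3 to 4 libraries per group limit every test.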
